A study of Homo sapiens with 9 samples.

Results

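The human mitochondrial genome was described through the 37 annotated features that the deposited files place on chromosome MT, of 57773 features in all. They comprise 13 messenger RNA genes, 2 ribosomal RNA genes and 22 transfer RNA genes, and were taken by their chromosome alone, whatever their values. The set itself was chosen with earlier results of these data known. The cells were HepG2, an established line from a human hepatocellular carcinoma that is widely used as a hepatocyte model. The 3 groups of 3 cultures each were exposed for 72 h, namely controls in 0.1% DMSO, cells given 2.5 µM TBOEP in 0.1% DMSO and cells given 125 µM TBOEP in 0.1% DMSO, so that all groups carried the solvent. TBOEP is tris(2-butoxyethyl) phosphate, an organophosphate added to plastics and floor polishes. Per the labels' protocols, each replicate was a separate seeding with its own compound solutions, RNA isolation and sequencing reaction. The model is 1 cell line. All values are shares of a library or scaled to it, so they do not show the number of cells in a culture. In RNA from whole cultures, a change in mitochondrial genomes per cell and a change in RNA per genome cannot be told apart.

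Human mitochondrial DNA is a small circle that is transcribed from both strands into long precursors covering many genes. Transfer RNA genes lie between most of the messenger and ribosomal RNA genes, and their excision by RNase P and RNase Z releases the RNAs on either side. The messengers encode the subunits of respiratory complexes I, III and IV and of ATP synthase that are made inside the organelle, while the polymerase, the processing enzymes and most respiratory subunits are encoded in the nucleus. Most mitochondrial messengers carry a short poly(A) tail, MT-ND6 little or none, and mature transfer RNAs none. In hepatocytes the respiratory chain also reoxidises the carriers reduced during fatty acid oxidation.

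Libraries held 2480964 to 11885877 gene reads, with the lowest total in 2.5 µM library 3 and the highest in 125 µM library 2. All 10 hepatocyte markers examined, among them ALB, APOB and SERPINA1, were present and tested in every comparison. Of 11 markers of blood, endothelial, fibroblast and muscle cells, PTPRC, CD3E and COL1A2 had no read in any library. PDGFRB had the most, with 263 reads in all 125 µM libraries, 512 at 2.5 µM and 415 in controls. PDGFRB and VWF had enough reads to be tested. The summed level of the 11 was 0.00137 to 0.00289% of gene reads in every library. The summed hepatocyte markers took 7.65 ± 0.838% of gene reads in control cultures, 6.14 ± 0.721% at 2.5 µM and 4.28 ± 0.363% at 125 µM (SD, n = 3 each). Of these 10 markers, 7 fell and 0 rose at 125 µM against control in edgeR, where 19.9% of all genes tested fell and 20.3% rose. ALB had a log2 fold change of -1.31 ± 0.17 (adjusted p = 4.88e-05), while APOA1, TTR and HNF4A did not pass. At 2.5 µM against control AFP and APOB fell and TTR rose, where 5.03% of all genes tested fell and 6.02% rose. As a share of nuclear gene reads, those that the files class as intronic took 7.24, 7.22 and 6.14% in control cultures, 7.74, 5.33 and 4.93% at 2.5 µM and 5.50, 5.28 and 4.91% at 125 µM. The part of these 2 differences in the mitochondrial values was not tested.

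Reads from the mitochondrial genome made up a larger share of the libraries at 125 µM and a smaller share at 2.5 µM than in control cultures. The share of total gene reads was 7.64, 7.58 and 8.64% in control cultures, 7.17, 7.19 and 6.82% at 2.5 µM and 9.70, 9.51 and 8.85% at 125 µM. No library of any group lay within the range of another group, with the 2.5 µM cultures lowest and the 125 µM cultures highest. The means were 7.96 ± 0.594% in control cultures, 7.06 ± 0.21% at 2.5 µM and 9.35 ± 0.442% at 125 µM (SD, n = 3 each). The 125 µM share was 1.39 percentage points above the control share and 2.29 points above the 2.5 µM share, and the difference of the 2.5 µM share from the control share was -0.895 points. Each difference had p = 0.1 in a two-sided exact permutation test (n = 3 each), the smallest p that 3 against 3 allows, and 0.133 after adjustment over 12 such tests of shares and ratios. Without control library 3, whose share of 8.64% was the highest of the controls, the difference at 2.5 µM was -0.552 points. With exon reads or RPKM the share covers the 13 messengers only, because the other 24 members have no annotated exon. The RPKM share is a share of summed RPKM and not of reads, so its points are on another scale. At 125 µM against control the difference was then 0.924 points with exon reads and 1.71 points with RPKM. Each had exact p = 0.2, so that the groups were not fully apart. The same held for the messenger share of total gene reads (0.954 points, exact p = 0.2). With RPKM the difference was -3.82 points of summed RPKM at 2.5 µM against control and 5.53 points of summed RPKM between the doses. Counting error was small beside the spread between cultures, the widest 95% Wilson interval running 8.82 to 8.89% in 125 µM library 3; such intervals cover counting error only.

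**Figure D1:**
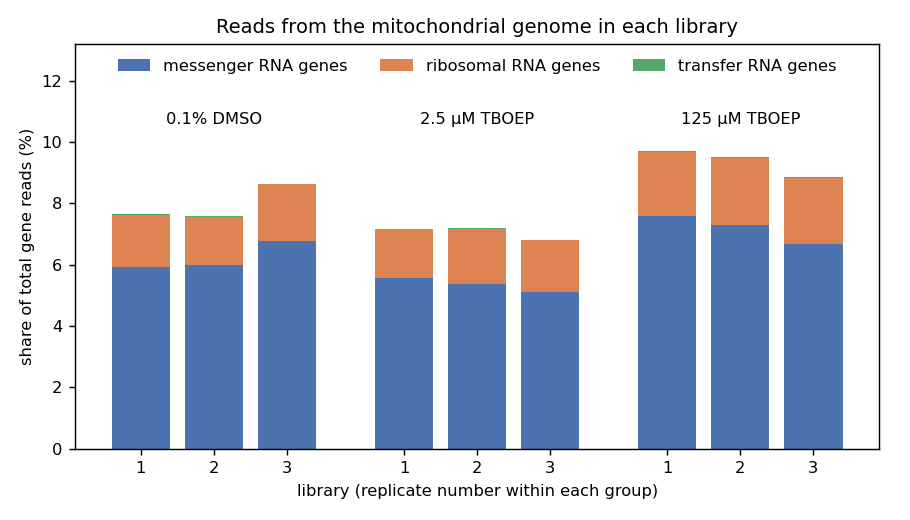
Share of total gene reads (%, vertical axis) from mitochondrial messenger, ribosomal and transfer RNA genes (stacked) in each of the 9 libraries. The control bars reach 7.58 to 8.64%, the 2.5 µM bars 6.82 to 7.19% and the 125 µM bars 8.85 to 9.70%; transfer RNA genes are too few in reads to be seen at this scale.

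The messenger genes held most of these reads. Their share of gene reads was 5.94, 5.98 and 6.77% in control cultures, 5.57, 5.36 and 5.12% at 2.5 µM and 7.58, 7.29 and 6.68% at 125 µM, so that control library 3 lay inside the 125 µM range while every 2.5 µM library lay below every control library. The 2 ribosomal RNA genes took 1.71 ± 0.131%, 1.69 ± 0.109% and 2.14 ± 0.0493% at 0, 2.5 and 125 µM (SD, n = 3 each). All 3 of the 125 µM ribosomal shares exceeded every other library, and the 2.5 µM and control ranges overlapped. The 22 transfer RNA genes together took 0.0163 to 0.0257% of gene reads in any library. In the controls MT-CO1 ranked 4th among all genes by reads, MT-RNR2 6th, MT-ND4 9th and MT-CO2 10th, and MT-ND3, the lowest messenger, ranked 101st.

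At 125 µM against control the genes that passed all rose, at 2.5 µM against control they all fell, and the largest number passed between the doses. Of the 37 members, 29 had enough reads to be tested, namely the 13 messenger, both ribosomal and 14 transfer RNA genes. The other 8, MT-TI, MT-TW, MT-TS1, MT-TD, MT-TK, MT-TR, MT-TH and MT-TS2, had 1 to 54 reads over all 9 libraries. In edgeR's quasi-likelihood test with Benjamini-Hochberg adjustment over all 12901 genes tested, 7 of the 29 rose at 125 µM against control, which is 24.1% of them beside 20.3% of all genes tested, and 0 fell beside 19.9%. At an unadjusted p under 0.05 the counts were 10 higher and 1 lower, and DESeq2 gave 7 and 0. The share of rises is thus near that of all genes, of which 40.2% passed in either direction. The groups did not overlap for 11 of the 29, 37.9% beside 50.9% of all genes tested. The median log2 fold change was 0.24 over the 29 members and 0.20 over the 13 messengers, against 0.0036 over all genes tested.

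At 2.5 µM against control, 3 of 29 fell, 10.3% beside 5.03% of all genes tested, and 0 rose beside 6.02%. The unadjusted counts were 11 lower and 0 higher, DESeq2 gave 5 lower and 0 higher, and 11.0% of all genes tested passed in either direction. All 13 messengers had a lower estimate, with a median of -0.25 against -0.0053 over all genes tested, and 8 of the 13 had groups that did not overlap. Over the 29 members the groups did not overlap for 9, 31.0% beside 28.2% of all genes tested.

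Between the doses, 14 of 29 were higher at 125 µM than at 2.5 µM, 48.3% beside 7.48% of all genes tested, and 0 were lower beside 7.44%. The unadjusted counts were 20 higher and 0 lower, DESeq2 gave 15 and 0, and 14.9% of all genes tested passed in either direction. Among the 14 were 11 of the 13 messengers, all but MT-CYB and MT-ND5, with MT-TA, MT-TC and MT-TL2. The groups did not overlap for 17 of the 29, 58.6% beside 32.8% of all genes tested, and the median log2 fold change was 0.38 against -0.0023. The 3 comparisons share their libraries in pairs, so their counts are not independent.

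The counts moved when single libraries were left out. At 125 µM against control the count of rises was 4 without control library 1 and 11 without control library 3. At 2.5 µM against control the count of falls was 1 without control library 1, 1 without 2.5 µM library 3 and 6 without control library 2, and 3 members passed as higher without 2.5 µM library 1. Between the doses it was 5 without 125 µM library 2 and 9 without 125 µM library 1. The median over the 13 messengers kept its sign in all 20 alternatives of each comparison, at 0.12 to 0.305 for 125 µM against control, -0.316 to -0.168 for 2.5 µM against control and 0.335 to 0.56 between the doses.

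**Figure D2:**
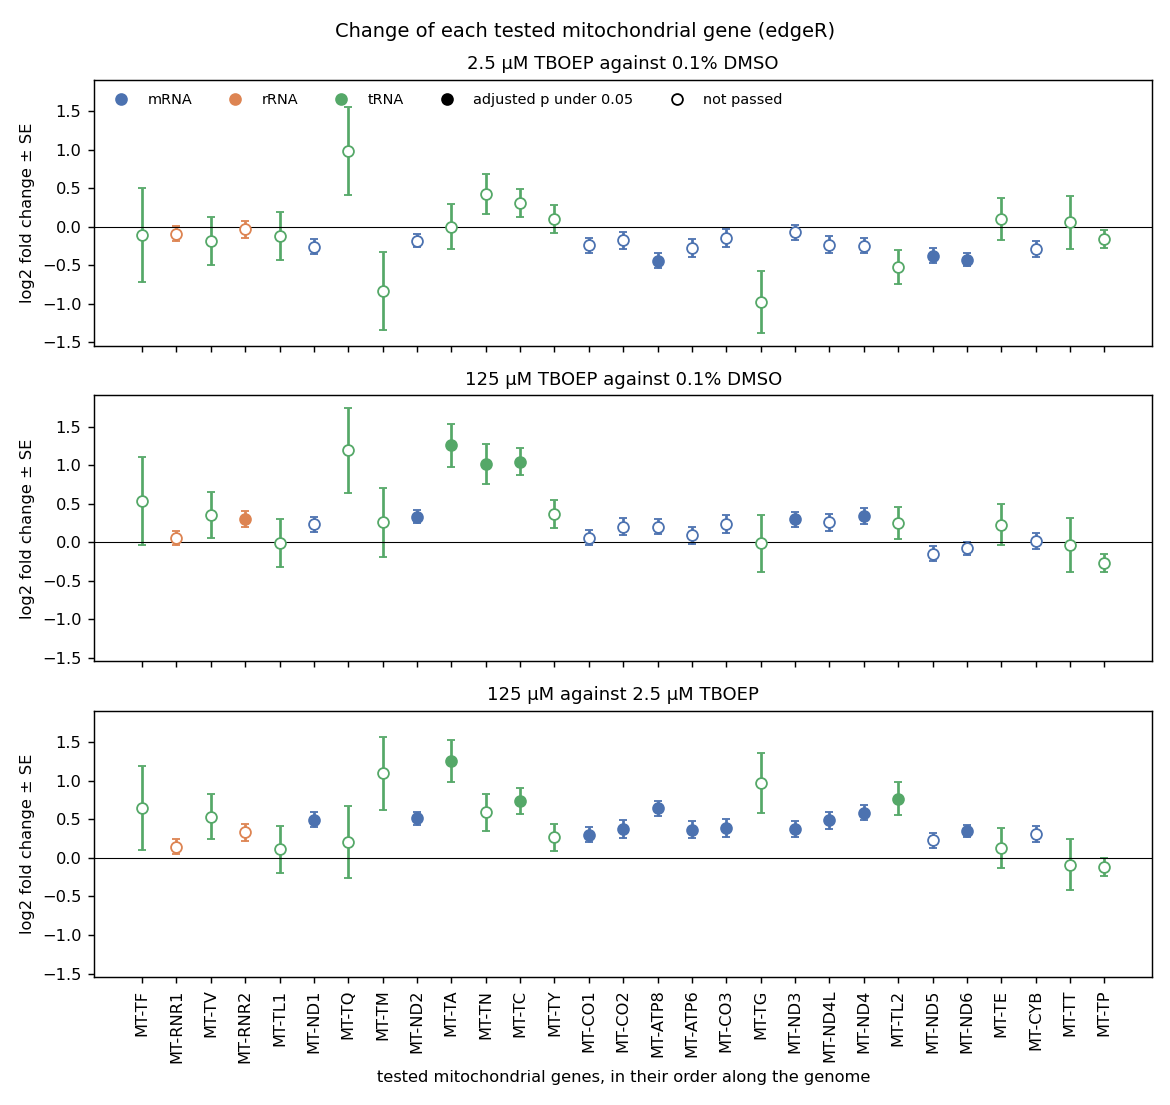
Log2 fold change ± SE (vertical axes) of the 29 tested members in their order along the genome, for 2.5 µM against control, 125 µM against control and 125 µM against 2.5 µM; filled symbols passed the edgeR test. All 13 messengers lie below 0 at 2.5 µM and above 0 between the doses, and MT-TA, MT-TN and MT-TC stand at 1.01 to 1.26 at 125 µM against control; MT-TQ, at 1.19, did not pass.

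The complex I group of 7 messengers encodes core subunits of complex I, the NADH dehydrogenase that feeds electrons into the chain. Of these 7, 3 rose at 125 µM against control, MT-ND2, MT-ND3 and MT-ND4, 42.9% beside 20.3% of all genes tested. Values are TMM-scaled CPM from the total gene reads, and positions are on chromosome MT of GRCh37. Log2 fold changes are given ± SE from the edgeR fit of all 9 libraries, with the adjusted p of that fit. MT-ND2 (4470-5511) had 1861, 1707 and 1956 CPM in control cultures, 1597, 1678 and 1589 at 2.5 µM and 2277, 2379.9 and 2291 at 125 µM. Every 125 µM culture exceeded every other, and the 2.5 µM cultures lay below the controls. The log2 fold change was 0.33 ± 0.084 (adjusted p = 0.00617) at 125 µM against control, -0.18 ± 0.084 at 2.5 µM (adjusted p = 0.173) and 0.51 ± 0.084 (adjusted p = 0.00116) between the doses. MT-ND2 passed in all 20 alternatives at 125 µM against control and in all 20 between the doses.

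MT-ND4 (10760-12137), the messenger with the most reads in complex I, had 9488, 8865 and 10638 CPM in control cultures, 8283, 8426 and 7716 at 2.5 µM and 12891, 12607 and 11230.4 at 125 µM. The 3 groups did not overlap, with 2.5 µM lowest and 125 µM highest. Its log2 fold change was 0.34 ± 0.10 (adjusted p = 0.0148) at 125 µM against control and 0.59 ± 0.10 (adjusted p = 0.0016) between the doses. The first of these calls was lost without 125 µM library 1 (adjusted p = 0.0552) or without control library 1 (adjusted p = 0.0636), and with limma on the quantile-normalised signal the log2 fold change was 0.76. MT-ND3 (10059-10404), a short subunit at the junction of the membrane and peripheral arms, had 938, 808 and 1007 CPM in control cultures, 816, 894 and 902 at 2.5 µM and 1019, 1176 and 1190.0 at 125 µM. The 125 µM cultures lay above all others, and the 2.5 µM and control ranges overlapped. The log2 fold change was 0.30 ± 0.099 (adjusted p = 0.0265) against control. That call was lost without 125 µM library 2 (adjusted p = 0.09), 125 µM library 3 (0.0907), control library 1 (0.0554) or control library 2 (0.0983), with exon reads (0.0536) or with limma on the quantile-normalised signal (0.114). Between the doses the log2 fold change of MT-ND3 was 0.37 ± 0.099 (adjusted p = 0.0213), a call lost without 125 µM library 2 (0.0934), 125 µM library 3 (0.0845) or 2.5 µM library 1 (0.0556).

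MT-ND1 (3307-4262) and MT-ND4L (10470-10766) differed between the doses and not, past the threshold, from control. MT-ND1 had 2689.5, 2334 and 2873 CPM in control cultures, 2167, 2323 and 2092 at 2.5 µM and 3279, 3022 and 2979 at 125 µM. Its 3 groups did not overlap, in the same order as those of MT-ND4. Its log2 fold change was 0.50 ± 0.096 (adjusted p = 0.00353) between the doses and 0.23 ± 0.096 (adjusted p = 0.066) at 125 µM against control. MT-ND4L had 2137, 1889 and 2438 CPM in control cultures, 1824, 1938 and 1734 at 2.5 µM and 2796, 2673 and 2249 at 125 µM. The control range reached into both of the others, while the 2 doses stayed apart, with a log2 fold change of 0.49 ± 0.11 (adjusted p = 0.00848). MT-ND1 and MT-ND4L passed between the doses in all 20 alternatives, MT-ND4L at adjusted p = 0.0498 in its least favourable one.

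MT-ND4L and MT-ND4 lie on 1 messenger with overlapping reading frames, so reads in the shared 7 bases belong to both. The junction is shown because the groups did not overlap in the share of MT-ND4L reads that the files class as intronic. The line gives the plus strand of chrM:10735-10791, with the 7 bases in both genes in capitals, which hold the start codon of MT-ND4 and the stop codon of MT-ND4L.
MT-ND4L/MT-ND4: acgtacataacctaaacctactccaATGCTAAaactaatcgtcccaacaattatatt

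MT-ND5 (12337-14148) and MT-ND6 (14149-14673) are the complex I messengers that fell at 2.5 µM, and neither passed at 125 µM against control. They are 28.6% of the 7, beside 5.03% of all genes tested that fell at 2.5 µM. MT-ND5 encodes the most distal of the proton-pumping subunits. It had 5606, 5409 and 5904 CPM in control cultures, 4697, 4147 and 4166 at 2.5 µM and 5533, 5043 and 4661 at 125 µM. All 2.5 µM cultures lay below all controls, and the 125 µM range overlapped both other groups. Its log2 fold change was -0.38 ± 0.097 (adjusted p = 0.0242) at 2.5 µM and -0.15 ± 0.096 (adjusted p = 0.231) at 125 µM against control. The 2.5 µM call was lost without 2.5 µM library 2 (adjusted p = 0.0601), 2.5 µM library 3 (0.0964), control library 1 (0.1) or control library 3 (0.0855).

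MT-ND6 is the only one of the 13 messenger genes annotated on the minus strand. It had 1328, 1168 and 1333 CPM in control cultures, 985, 928 and 929 at 2.5 µM and 1186, 1219 and 1217 at 125 µM. The 2.5 µM cultures lay below all others, and the 125 µM and control ranges overlapped. The log2 fold change was -0.43 ± 0.083 (adjusted p = 0.00907) at 2.5 µM and -0.080 ± 0.083 (adjusted p = 0.471) at 125 µM against control. At 2.5 µM MT-ND6 passed in all 20 alternatives, at adjusted p = 0.0493 in the least favourable one, without control library 1. Between the doses the log2 fold change was 0.35 ± 0.083 (adjusted p = 0.0121), a call lost without 125 µM library 2 (adjusted p = 0.0546). MT-ND5 and MT-ND6 converge tail to tail without sharing a base, and their meeting point is shown because the files do not say whether counting used strand, so that RNA from the opposite strand of either gene cannot be told apart from its own. The plus strand of chrM:14124-14173 reads as follows, with the last 3 bases of each gene in capitals.
MT-ND5/MT-ND6: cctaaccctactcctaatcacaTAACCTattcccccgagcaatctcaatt

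**Figure D3:**
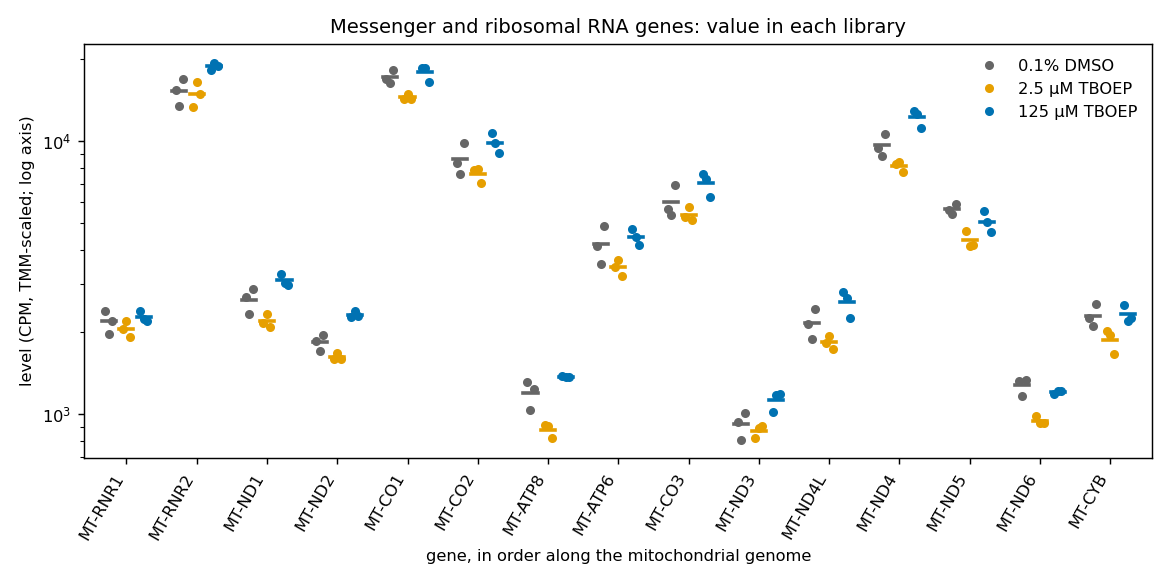
TMM-scaled level (CPM, log axis) of the 13 messenger and 2 ribosomal RNA genes in each of the 9 libraries, with the mean of each group as a bar. In MT-ND2, MT-ND4 and MT-ND1 the 125 µM points stand above the controls and the 2.5 µM points below them, while in MT-ATP8 and MT-ND6 the 2.5 µM points stand apart below.

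The other 6 messengers, for 1 subunit of complex III, 3 of complex IV and 2 of ATP synthase, had 0 of 6 past the threshold at 125 µM against control. Of all genes tested, 40.2% passed there. The count was also 0 at an unadjusted p under 0.05 in edgeR. All 6 estimates were nevertheless above 0, with log2 fold changes of 0.017 to 0.237 and a median of 0.145. The 7 complex I messengers ranged from -0.151 to 0.341 in that comparison, with a median of 0.257. The difference between these 2 sets of messengers was not tested. MT-CO1 (5904-7445), the catalytic subunit of cytochrome c oxidase, had 16870.1, 16420.5 and 18261 CPM in control cultures, 14348, 14858 and 14329 at 2.5 µM and 18605, 18597 and 16552 at 125 µM. All 2.5 µM cultures lay below all others, and 125 µM library 3 lay among the controls. Its log2 fold change was 0.30 ± 0.096 (adjusted p = 0.0457) between the doses, a call lost in 10 of 20 alternatives. These included leaving out any 1 of the 125 µM libraries, 2.5 µM libraries 2 or 3 or control libraries 1 or 3 (adjusted p = 0.054 to 0.153).

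MT-CO2 (7586-8269), which takes electrons from cytochrome c, had 8343, 7593 and 9889.5 CPM in control cultures, 7876, 7934 and 7018 at 2.5 µM and 10701, 9878 and 9075 at 125 µM. MT-CO3 (9207-9990), a structural subunit, had 5668, 5359 and 6927 CPM in control cultures, 5279, 5733 and 5164 at 2.5 µM and 7599, 7282 and 6269 at 125 µM. For both, the 125 µM cultures lay above every 2.5 µM culture and the controls overlapped each group. The log2 fold change between the doses was 0.38 ± 0.11 (adjusted p = 0.036) for MT-CO2 and 0.39 ± 0.11 (adjusted p = 0.0329) for MT-CO3. Each call was lost in 6 of 20 alternatives. For MT-CO2 these included limma on RPKM (adjusted p = 0.0527) and leaving out 125 µM libraries 1 or 2 or 2.5 µM libraries 2 or 3 (0.0656 to 0.141), and for MT-CO3 leaving out 125 µM libraries 1 or 2 or any 2.5 µM library (0.0515 to 0.129). MT-CYB (14747-15887), cytochrome b of complex III, had 2254, 2104 and 2542 CPM in control cultures, 2011, 1953 and 1669 at 2.5 µM and 2519, 2200.0 and 2259.7 at 125 µM. The 2.5 µM cultures lay below all others, yet no comparison passed, the log2 fold change between the doses being 0.31 ± 0.10 (adjusted p = 0.0566).

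MT-ATP8 (8366-8572) and MT-ATP6 (8527-9207), both subunits of the proton channel sector of ATP synthase, are read in different frames of 1 messenger and share 46 bases, so their counts are uncertain to that extent. MT-ATP8 had 1308, 1037 and 1239.8 CPM in control cultures, 910.1, 904 and 819 at 2.5 µM and 1384, 1365 and 1373 at 125 µM. The 125 µM cultures lay above and the 2.5 µM cultures below every control. MT-ATP8 fell at 2.5 µM (log2 fold change -0.44 ± 0.095, adjusted p = 0.0118), a call lost without 2.5 µM library 3 (adjusted p = 0.0557) or control library 1 (0.0738). Between the doses it had the largest difference of any messenger, 0.65 ± 0.095 (adjusted p = 0.000544), and passed in all 20 alternatives. MT-ATP6 had 4125, 3558 and 4890.0 CPM in control cultures, 3471, 3679.7 and 3214 at 2.5 µM and 4756, 4444 and 4171 at 125 µM. Its doses did not overlap, and the log2 fold change was 0.37 ± 0.11 (adjusted p = 0.0417), a call lost in 9 of 20 alternatives. Those 9 included leaving out any 1 of the 6 treated libraries, with adjusted p = 0.0611 to 0.147.

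The overlap is shown because MT-ATP8 fell at 2.5 µM and MT-ATP6 did not pass (-0.28 ± 0.11, adjusted p = 0.125). The ratio of MT-ATP8 to MT-ATP6 reads was 0.317, 0.291 and 0.254 in control cultures, 0.262, 0.246 and 0.255 at 2.5 µM and 0.291, 0.307 and 0.329 at 125 µM. The 125 µM ratios exceeded every 2.5 µM ratio, and the control range overlapped both. The line gives the plus strand of chrM:8515-8584, with the bases in both genes in capitals.
MT-ATP8/MT-ATP6: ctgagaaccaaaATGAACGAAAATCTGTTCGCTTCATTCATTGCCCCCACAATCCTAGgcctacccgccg

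Set per kilobase of gene, which removes gene length but not any difference in how well poly(A) selection captured each RNA, the controls averaged 12586 ± 1712 CPM per kb for MT-CO2, 11144 ± 622 for MT-CO1 and 9791 ± 1086 for MT-RNR2 (SD, n = 3). At the low end were MT-CYB with 2016 ± 195 CPM per kb and MT-ND2 with 1767 ± 121. The level per kilobase did not follow the order along the genome, MT-ND2 standing below its messenger neighbours MT-ND1 and MT-CO1.

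Of the 2 ribosomal RNAs, the large one rose at 125 µM against control. MT-RNR2 (1671-3229), the 16S RNA, had 15381, 13515 and 16895 CPM in control cultures, 13409.9, 16444 and 14885 at 2.5 µM and 18227, 19398 and 18810.3 at 125 µM. The 125 µM cultures lay above all others, and the 2.5 µM and control ranges overlapped. Its log2 fold change was 0.30 ± 0.11 (adjusted p = 0.0409) at 125 µM and -0.034 ± 0.11 (adjusted p = 0.882) at 2.5 µM against control. The 125 µM call was lost in 6 of 17 alternatives, among them leaving out control library 1 (adjusted p = 0.109), control library 2 (0.128) or any 1 of the 125 µM libraries (0.0608 to 0.105).

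MT-RNR1 (648-1601), the 12S RNA of the small ribosomal subunit, had 2398, 1974 and 2194 CPM in control cultures, 2058, 2195 and 1915 at 2.5 µM and 2384, 2240.3 and 2203 at 125 µM. Controls and 125 µM cultures overlapped, and the log2 fold change was 0.056 ± 0.095 (adjusted p = 0.669). The ratio of MT-RNR2 to MT-RNR1 reads was 6.42, 6.85 and 7.70 in control cultures, 6.52, 7.49 and 7.77 at 2.5 µM and 7.65, 8.66 and 8.54 at 125 µM. Control library 3 and 2.5 µM library 3 lay inside the 125 µM range. Ribosomal RNA as a percentage of mitochondrial reads was 22.06, 20.95 and 21.40% in control cultures, 22.13, 25.10 and 24.58% at 2.5 µM and 21.61, 23.07 and 24.21% at 125 µM. Every 2.5 µM library exceeded every control (difference 2.47 points, two-sided exact permutation p = 0.1, n = 3 each), and the 125 µM range overlapped both (against control, 1.5 points, exact p = 0.2, and 0.872 points without 125 µM library 3). The kit selected polyadenylated RNA, and the fraction of ribosomal RNA that carries a tail was not measured.

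Of the 14 tested transfer RNA genes, MT-TA, MT-TN and MT-TC rose at 125 µM against control, with larger log2 fold changes than any messenger. They are 21.4% of the 14, near the 20.3% of all genes tested that rose. These genes, for alanine, asparagine and cysteine, lie side by side on the minus strand with MT-TY, for tyrosine, between MT-ND2 and MT-CO1. MT-TA had 12.3, 13.9 and 11.3 CPM in control cultures, 7.75, 16.1 and 14.9 at 2.5 µM and 18.6, 34.9 and 38.9 at 125 µM. All 125 µM cultures exceeded all others, while the 2.5 µM range lay across the controls. The log2 fold change was 1.26 ± 0.28 (adjusted p = 0.00234) against control and 1.26 ± 0.27 (adjusted p = 0.00668) between the doses. MT-TN had 11.4, 16.0 and 11.3 CPM in control cultures, 10.0, 22.0 and 21.8 at 2.5 µM and 21.2, 27.3 and 30.8 at 125 µM. The 125 µM range overlapped that at 2.5 µM and lay above the controls, with a log2 fold change of 1.01 ± 0.26 (adjusted p = 0.00578) against control.

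MT-TC had 12.8, 12.5 and 12.1 CPM in control cultures, 11.6, 17.01 and 20.2 at 2.5 µM and 22.8, 26.1 and 30.1 at 125 µM. Its 125 µM cultures lay above all others, with a log2 fold change of 1.05 ± 0.18 (adjusted p = 0.000365) against control and 0.74 ± 0.17 (adjusted p = 0.00993) between the doses. MT-TY had 25.5, 20.8 and 38.2 CPM in control cultures, 25.6, 34.1 and 27.9 at 2.5 µM and 32.0, 38.9 and 35.2 at 125 µM, and its groups overlapped (0.36 ± 0.18, adjusted p = 0.117 at 125 µM against control). The rises of MT-TA, MT-TN and MT-TC against control passed in all 17 alternatives in which they were tested. Between the doses, MT-TA and MT-TC lost their calls without 125 µM library 2 (adjusted p = 0.0536 and 0.0521). The depth behind these values is small, 1201, 1218, 1170 and 2030 reads over all 9 libraries for MT-TA, MT-TN, MT-TC and MT-TY.

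The 4 neighbours are shown in the direction of their own strand, 5′ to 3′ with T for U, because 3 of them passed and MT-TY, which shares 1 base with MT-TC, did not; the difference between them was not tested. Capitals mark the anticodon, and the positions are chrM:5587-5655 for MT-TA, chrM:5657-5729 for MT-TN, chrM:5761-5826 for MT-TC and chrM:5826-5891 for MT-TY, all on the minus strand.
MT-TA: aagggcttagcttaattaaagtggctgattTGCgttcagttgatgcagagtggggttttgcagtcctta
MT-TN: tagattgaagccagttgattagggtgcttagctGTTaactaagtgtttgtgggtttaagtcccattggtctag
MT-TC: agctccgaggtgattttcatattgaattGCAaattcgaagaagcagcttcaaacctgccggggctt
MT-TY: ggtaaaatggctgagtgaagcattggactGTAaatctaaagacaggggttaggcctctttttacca

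MT-TL2, the leucine transfer RNA that reads CUN codons, lies on the plus strand between MT-TS2 and MT-ND5. It had 5.98, 6.33 and 8.72 CPM in control cultures, 4.40, 4.28 and 6.87 at 2.5 µM and 8.13, 8.22 and 7.71 at 125 µM. The doses did not overlap, and the log2 fold change between them was 0.77 ± 0.21 (adjusted p = 0.0257), a call lost in 5 of 17 alternatives. These were DESeq2 and leaving out 125 µM libraries 1 or 2 or 2.5 µM libraries 1 or 2 (adjusted p = 0.0828 to 0.121 for the 4 libraries). Its sequence (chrM:12266-12336, anticodon in capitals) is given as the called gene outside the cluster.
MT-TL2: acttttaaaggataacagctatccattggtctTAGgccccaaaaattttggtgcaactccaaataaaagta

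MT-TP, for proline, held the most transfer RNA reads, with 113, 95.2 and 109 CPM in control cultures, 80.3, 113 and 90.9 at 2.5 µM and 93.2, 87.6 and 81.1 at 125 µM. The 125 µM cultures lay below all controls, and the log2 fold change was -0.27 ± 0.12 (adjusted p = 0.079), which did not pass. Among all transfer RNA reads, MT-TP took 54.4, 53.0 and 49.8% in control cultures, 50.7, 48.7 and 44.2% at 2.5 µM and 41.9, 34.6 and 32.5% at 125 µM. MT-TA, MT-TN and MT-TC together took 17.6, 23.6 and 15.8% in control cultures, 18.5, 23.8 and 27.7% at 2.5 µM and 28.1, 34.8 and 40.0% at 125 µM. The second share was higher, and the first lower, in every 125 µM library than in any other; both shares were formed after the gene values were seen, and no test is given. The 8 minus-strand genes together took 86.8 to 91.1% of transfer RNA reads in every library. The remaining 9 tested transfer RNA genes, MT-TF, MT-TV, MT-TL1, MT-TQ, MT-TM, MT-TG, MT-TE, MT-TT and MT-TY, passed in no comparison with edgeR, with log2 fold changes of -0.98 to 1.19. The highest of these was that of MT-TQ, for glutamine, at 125 µM against control, 1.19 ± 0.56 (adjusted p = 0.102). MT-TQ had 0.839, 0.989 and 0.77 CPM in control cultures, 0.478, 2.60 and 2.83 at 2.5 µM and 1.82, 2.32 and 1.47 at 125 µM, and all 125 µM cultures lay above all controls, on 103 reads over all 9 libraries.

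The kit selected polyadenylated RNA, and which molecules gave the transfer RNA reads was not tested. A plus-strand precursor across the cluster cannot be told apart from the minus-strand RNA.

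**Figure D4:**
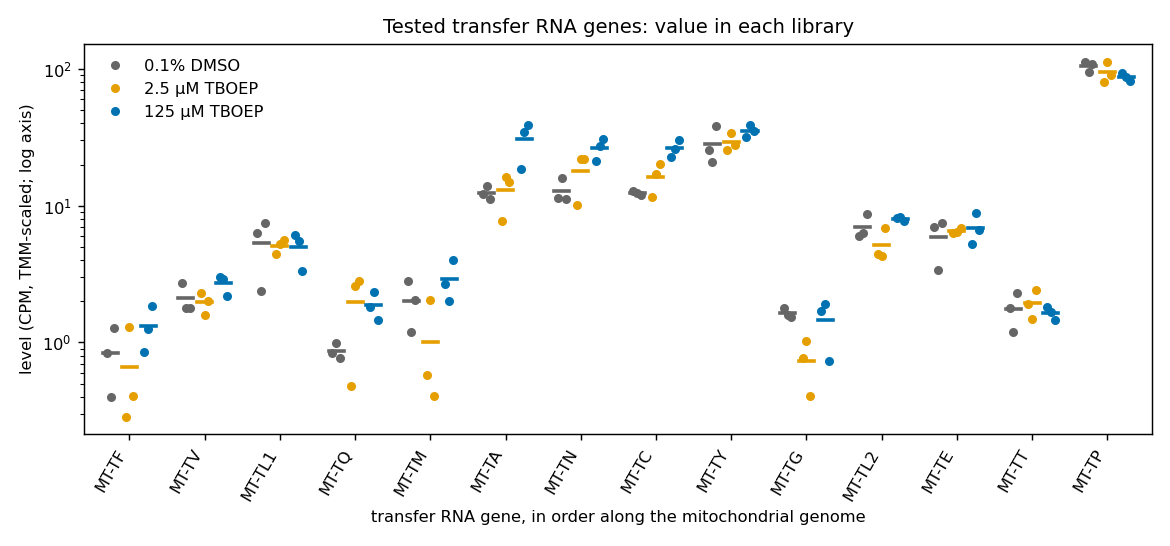
TMM-scaled level (CPM, log axis) of the 14 tested transfer RNA genes in each of the 9 libraries, with the mean of each group as a bar. For MT-TA, MT-TN and MT-TC the 125 µM points lie at 18.6 to 38.9 CPM, above the control points at 11.3 to 16.0 CPM.

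Within the mitochondrial messenger reads of each library, a measure from which library scaling cancels, MT-ND4 and MT-ND2 took larger parts in every 125 µM culture than in any control, and MT-CO1, MT-ND5, MT-CYB and MT-ND6 smaller ones. Of the reads of the 13 messengers, MT-ND4 took 15.15, 15.22 and 15.22% in control cultures, 15.26, 15.21 and 15.03% at 2.5 µM and 17.29, 17.54 and 17.14% at 125 µM. The controls and 2.5 µM cultures overlapped, and all 125 µM cultures lay above them. MT-ND5 took 8.95, 9.29 and 8.45% in control cultures, 8.66, 7.49 and 8.11% at 2.5 µM and 7.42, 7.02 and 7.11% at 125 µM, with every 125 µM culture below every other and the 2.5 µM range overlapping the controls. MT-ND6 took 2.12, 2.01 and 1.91% in control cultures, 1.81, 1.68 and 1.81% at 2.5 µM and 1.59, 1.70 and 1.86% at 125 µM. Both doses lay below the controls and overlapped each other.

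For MT-ND6 the difference was -0.296 points at 125 µM and -0.244 points at 2.5 µM against control, each with p = 0.1 in a two-sided exact permutation test (n = 3 each) and 0.133 after adjustment over the same 12 tests as the mitochondrial share. With RPKM, as a part of the summed messenger RPKM, the difference at 125 µM was -0.454 points. Between the doses it was -0.0519 points (exact p = 0.7). MT-ATP8 took 2.09, 1.78 and 1.77% in control cultures, 1.68, 1.63 and 1.59% at 2.5 µM and 1.86, 1.90 and 2.10% at 125 µM, with the 2.5 µM cultures below all others. MT-CO1, the largest part, took 26.9, 28.2 and 26.1% in control cultures, 26.4, 26.8 and 27.9% at 2.5 µM and 25.0, 25.9 and 25.3% at 125 µM, and its 125 µM cultures lay below all others. At 125 µM against control the difference was 0.387 points for MT-ND2 and -0.32 points for MT-CYB, whose 2.5 µM ranges overlapped both other groups. Apart from MT-ND6, the parts of single messengers were examined after their values were seen, and none of the 39 exact tests over all 13 had an adjusted p under 0.279, the least that 0.1 could reach here.

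The 3 groups stood apart in the share of MT-ND4L reads that the files class as intronic. The files split the reads of a gene into those inside its annotated exon, which for each of the 13 messengers is the whole gene, and those classed as intronic, a class whose definition is not given in the sources used here. Of MT-ND4L reads, the second class took 32.0, 34.1 and 32.4% in control cultures, 28.2, 29.8 and 28.5% at 2.5 µM and 27.6, 27.0 and 27.2% at 125 µM. The 3 groups did not overlap, the controls standing highest and the 125 µM cultures lowest. The means were 32.8 ± 1.10% in control cultures, 28.8 ± 0.885% at 2.5 µM and 27.3 ± 0.351% at 125 µM (SD, n = 3 each). The difference against control was -5.56 points at 125 µM and -4.02 points at 2.5 µM, each with a two-sided exact permutation p = 0.1 (n = 3 each) and 0.355 after adjustment over 39 such tests. For MT-ND6 the class took 21.6 to 23.7% in every library, and its groups overlapped. For the other 11 messengers it took 0.316 to 4.61%. Of these, MT-CO1 was higher at 125 µM than in any control (0.674 points). MT-ND1 (-0.427 points) and MT-ND2 (-0.215 points) were lower there without overlap. At 2.5 µM against control MT-ND1 (-0.299 points), MT-CO3 (-0.121 points) and MT-ND5 (-0.24 points) were lower without overlap. Each of these differences had the same exact p and adjusted p as those of MT-ND4L. The nuclear share of intronic reads was 6.87 ± 0.628%, 6.00 ± 1.52% and 5.23 ± 0.298% at 0, 2.5 and 125 µM (SD, n = 3 each), and its part in the MT-ND4L values was not tested.

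**Figure D5:**
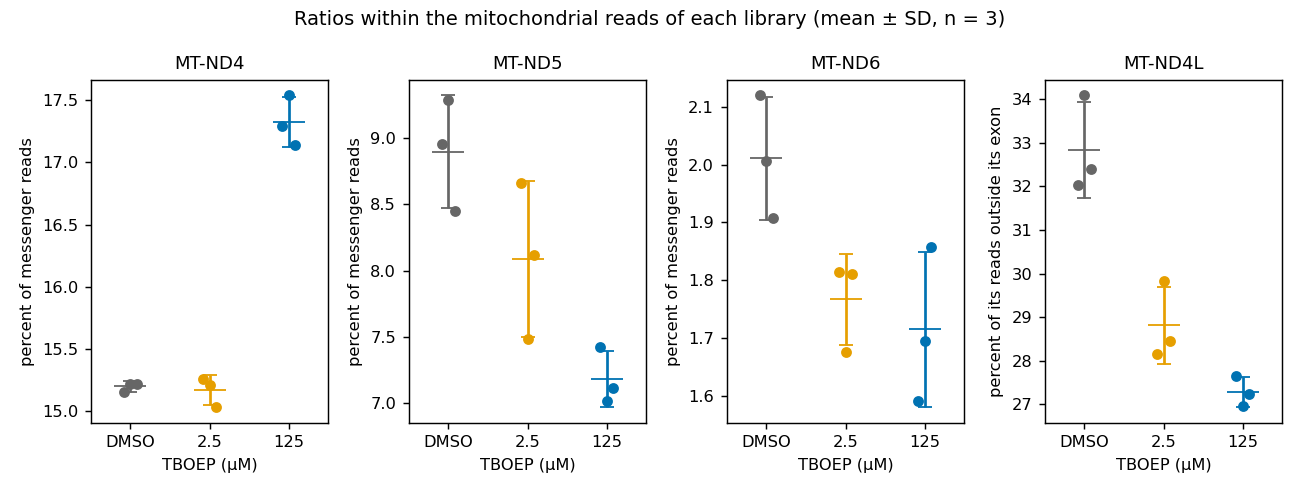
Ratios within the mitochondrial reads of each library (points, with mean ± SD, n = 3 each). MT-ND4, MT-ND5 and MT-ND6 are given as a percentage of messenger reads. For MT-ND4L the percentage of its reads classed as intronic is given, labelled on the axis as outside its exon. MT-ND4 stands at 17.1 to 17.5% at 125 µM against 15.0 to 15.3% in the other libraries, and the MT-ND4L values are lowest at 125 µM; the vertical axes do not start at 0.

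Most of the tested nuclear genes for subunits of the same complexes rose at each dose against control. Of the 13 mitochondrial messengers, 3 fell at 2.5 µM (23.1% beside 5.03% of all genes tested) and the other 10 did not pass. At 125 µM 3 of the 13 rose (23.1% beside 20.3%) and 0 fell, with 11 of the 13 estimates above 0. Of 69 tested nuclear subunit genes, 51 were higher and 1 lower at 125 µM against control, 73.9% and 1.45% beside 20.3% and 19.9% of all genes tested, with a median log2 fold change of 0.54 against 0.0036 over all genes tested. At 2.5 µM against control 36 were higher and 0 lower in edgeR (46 and 0 at an unadjusted p under 0.05), 52.2% higher beside 6.02% of all genes tested, with a median of 0.41 against -0.0053 over all genes tested. Between the doses 1 was higher and 1 lower, 1.45% each way beside 7.48% and 7.44% of all genes tested. ATP5H, of the stalk of ATP synthase, had log2 fold changes of 0.99 ± 0.12 (adjusted p = 2.55e-05) at 125 µM and 0.71 ± 0.12 (adjusted p = 0.00635) at 2.5 µM against control, and overlaps a tested gene. UQCRQ, of complex III, had 1.41 ± 0.19 at 125 µM (adjusted p = 6.99e-05) and 1.00 ± 0.19 at 2.5 µM (adjusted p = 0.00891). NDUFB5, of complex I, and ATP5G3, of ATP synthase, rose by log2 fold changes of 0.90 ± 0.12 and 0.92 ± 0.12 at 125 µM against control (adjusted p = 7.39e-05 and 5.08e-05).

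The difference between the 2 genomes was tested as a ratio within each library, the log2 of the summed reads of the 13 mitochondrial messengers over those of the nuclear subunit genes. It was 3.51, 3.41 and 3.64 in control cultures, 3.13, 2.87 and 2.79 at 2.5 µM and 3.39, 3.31 and 3.21 at 125 µM. The groups did not overlap, with the controls highest and 2.5 µM lowest. The difference was -0.22 at 125 µM and -0.59 at 2.5 µM against control, and 0.37 between the doses. Each had p = 0.1 in a two-sided exact permutation test (n = 3 each), or 0.133 after adjustment over 12 tests.

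Among nuclear genes that maintain or express mitochondrial DNA, some rose and others fell at 125 µM. Of 16 for replication and maintenance, 5 were higher and 5 lower at 125 µM against control, 31.2% each way beside 20.3% and 19.9% of all genes tested. At 2.5 µM 3 were higher and 1 lower, 18.8% and 6.25% beside 6.02% and 5.03%. The median log2 fold changes were 0.23 and 0.012, against 0.0036 and -0.0053 over all genes tested. SSBP1, the mitochondrial single-stranded DNA binding protein, rose, with log2 fold changes of 0.54 ± 0.10 (adjusted p = 0.00096) at 125 µM and 0.37 ± 0.10 (adjusted p = 0.0361) at 2.5 µM against control. MPV17, an inner membrane protein whose loss depletes mitochondrial DNA, rose at 125 µM against control (0.61 ± 0.14, adjusted p = 0.00313) and between the doses (0.55 ± 0.14, adjusted p = 0.0163). POLG, the catalytic subunit of the mitochondrial DNA polymerase, fell at 125 µM against control (-0.38 ± 0.090, adjusted p = 0.00404), as did SUCLA2, a succinyl-CoA ligase needed for the nucleotide supply (-0.51 ± 0.096, adjusted p = 0.000888); both lie across a second tested gene, so their reads are uncertain in part.

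Of 9 genes for transcription, 1 was higher (11.1% beside 20.3%) and 0 lower (beside 19.9%) at 125 µM against control. In edgeR 0 passed at 2.5 µM against control, beside 11.0% of all genes tested, and 0 also at an unadjusted p under 0.05. The medians were -0.014 at 125 µM and -0.033 at 2.5 µM. The one that passed was MTERFD1 (0.50 ± 0.17, adjusted p = 0.0325), a member of the mitochondrial termination factor family. TFAM, which packages the DNA and starts transcription, had log2 fold changes of -0.095 ± 0.090 (adjusted p = 0.429) at 125 µM and 0.097 ± 0.090 (adjusted p = 0.519) at 2.5 µM against control. POLRMT, the RNA polymerase, had log2 fold changes of 0.0050 ± 0.091 (adjusted p = 0.974) and 0.075 ± 0.091 (adjusted p = 0.633) in the same comparisons.

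Of 21 genes for RNA processing and stability, 5 were higher and 1 lower at 125 µM against control, 23.8% and 4.76% beside 20.3% and 19.9% of all genes tested. At 2.5 µM 1 was higher, 4.76% beside 6.02%. Both shares of higher genes lay near those of all genes, and the median log2 fold changes were 0.135 and 0.047 against 0.0036 and -0.0053. HSD17B10, a subunit of mitochondrial RNase P, rose, with log2 fold changes of 0.51 ± 0.14 (adjusted p = 0.00846) at 125 µM and 0.46 ± 0.14 (adjusted p = 0.0469) at 2.5 µM. SLIRP, which stabilises messengers together with LRPPRC, rose at 125 µM (0.60 ± 0.14, adjusted p = 0.00347) and overlaps a tested gene, and LRPPRC itself had 0.095 ± 0.087 (adjusted p = 0.409). FASTKD1, an RNA-binding protein of mitochondria, rose at 125 µM (0.46 ± 0.11, adjusted p = 0.00431), and PTCD3, of the small mitochondrial ribosomal subunit, fell at 125 µM (-0.24 ± 0.078, adjusted p = 0.0217). Of 9 transfer RNA modification genes, GTPBP3 rose (0.45 ± 0.12, adjusted p = 0.0107) and TRMU fell (-0.52 ± 0.11, adjusted p = 0.00148) at 125 µM against control. That is 11.1% each way, below the 20.3% higher and 19.9% lower of all genes tested. TFAM, POLRMT and LRPPRC were chosen after their values were seen.

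Nuclear copies of mitochondrial genes, which resemble them in sequence, held almost no reads. Of 188 such features, 15 had a read, 83 reads in all 9 libraries, led by MTRNR2L12 with 43, and 0 reached the filter for testing. The 37 members had 0 to 3 reads per library that were not uniquely mapped.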

How the data were processed

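RNA sequencing libraries from HepG2 cells were analysed, 3 per group in 3 groups. TRIzol and RNeasy extraction preceded TruSeq Stranded mRNA library preparation, per the labels' protocols. The series' design text names CLC Genomics Workbench for alignment to hg19 and annotation. The software version and whether strand was used in counting were not given in the sources used here. The authors deposited raw read counts per gene, per the file headers. Deposited RPKM values carry the authors' scaling by exon length and depth, per the file headers, and were 0 for the 24 members without an annotated exon. A further deposited column holds signal that the authors quantile-normalised, as the series' design text states.

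Total gene reads, which ranged from 2480964 to 11885877 per library, were filtered with filterByExpr, which kept 12901 genes, scaled by TMM and fitted in R 4.3.3 with edgeR 4.0.16 (quasi-likelihood test) to all 9 libraries in 3 groups without a covariate. P-values were two-sided and adjusted by Benjamini-Hochberg over all 12901 genes, with a threshold of 0.05. At these depths 3 reads correspond to 0.252 to 1.21 CPM. Shares and ratios were compared by exact permutation with SciPy 1.17.1, and tables were handled in Python 3.11.15 with pandas 2.3.3 and drawn with matplotlib 3.10.9. The fit was tested on simulated data. Of genes changed 1.5-fold, it recovered 53.7% at 125 µM against control, 50.7% at 2.5 µM against control and 58.2% between the doses. For genes changed 2-fold these values were 80.6%, 83.6% and 82.1%. Changes under 1.5-fold were not simulated, so a member that did not pass may still have changed. All 37 members had the position and, from it, the strand of GENCODE v44 on GRCh37 once 1 was added to the files' start, and sequences were read from that genome, whose chrM has 16569 bases.

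Every messenger and ribosomal RNA gene was named with its values, transfer RNA genes where they passed in a comparison, and from each nuclear list up to 4 genes that passed, by smallest adjusted p in a comparison with control. MT-TP, MT-TQ and MT-TY lie outside this rule. The members and gene lists were chosen with earlier results of these data known. The messenger composition other than that of MT-ND6, the messenger reads classed as intronic and the ratios between single genes were formed after values were seen. Of 72 nuclear subunit genes listed, 69 were found in the files, and of 22 RNA processing genes 21. Alternatives were other read classes, scalings and filters, DESeq2 1.42.0, limma 3.58.1 on log2(RPKM + 0.5) and on log2(normalised signal + 1), the replicate number as a block, and leaving out each library.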

Additional observations from a re-analysis of the deposited data

How the results depend on the processing

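At 125 µM against control, the 7 rises became 3 with exon reads, where the 13 messengers were the members tested, and 4 to 11 when 1 library was left out. The 0 falls there became 1 without a filter, 1 with limma on the quantile-normalised signal and 0 to 1 when 1 library was left out. At 2.5 µM against control, the 0 rises became 0 to 3 when 1 library was left out. The 3 falls became 5 with DESeq2, 5 without a filter, 7 with limma on the quantile-normalised signal and 1 to 6 when 1 library was left out. Between the doses, the 14 rises became 9 with exon reads, 9 with limma on RPKM and 5 to 16 when 1 library was left out. The cause of these shifts was not tested, beyond the fewer members and samples that some settings hold.

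MT-ND6 as a percentage of messenger reads ranged from -0.123 to 0.00983 points between the doses when 1 library was left out, the positive value without 125 µM library 1. MT-ND4 as a percentage of messenger reads ranged from -0.0776 to 0.0407 points at 2.5 µM against control, the positive value without 2.5 µM library 3. Of 114 alternatives for the mitochondrial share, MT-ND6, the ribosomal share and the ratio to nuclear subunit genes, 113 kept the direction. RPKM values cover only the messengers among the members, and their share is one of summed RPKM, not of reads. That share differed by -3.82 points at 2.5 µM against control and by 5.53 points between the doses. In limma on log2(RPKM + 0.5), where values, test and filter all differ and 11291 genes were tested, the median of all genes was 0.12 on the log2 scale at 125 µM against control, with 2995 genes higher and 1345 lower in place of 2618 and 2562; the median of the messengers was then 0.268.

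Replicate numbers are shared between groups. Deviations of same-numbered libraries correlated at -0.241 to 0.184, and those of differently numbered libraries at -0.268 to 0.268. With 3 libraries per group these ranges cannot decide whether same-numbered libraries were paired. Library 3 had the fewest gene reads in each group, 4023991 in controls, 2480964 at 2.5 µM and 2670690 at 125 µM. Whether this depth reflects a shared preparation was not tested. With the replicate block the members called were 6 higher at 125 µM against control, 3 lower at 2.5 µM against control and 11 higher between the doses. The calls that did not pass with the block were MT-RNR2 at 125 µM against control (adjusted p = 0.0722) and, between the doses, MT-CO1 (0.0951), MT-CO2 (0.0675), MT-ATP6 (0.0727) and MT-CO3 (0.0636). Transfer RNA calls rest on 419 to 1218 reads over all libraries, and depth limits the 8 untested members, with 54 reads at most.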
